A study of Drosophila melanogaster with 4 samples.

Results

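The genes described here carry proteins into and out of the endoplasmic reticulum (ER) in larvae of Drosophila melanogaster. They were chosen by a rule on gene symbols, set with earlier results of these data known: symbols that start with Sec, EMC or Srp followed by a digit, or with Spase, and the names Tapdelta, SsRbeta, TRAM, Sar1, Ostgamma, OstDelta, Ost48, Dad1, Trp1, SrpRalpha and SrpRbeta. This gave 42 genes, each with 1 probe, among 13891 features (11980 named genes and the probes without a single name). All 42 had a value on all 4 arrays, and no filter on low values was applied. Of 50 protein-coding genes with such a symbol in the RefSeq gene table, 8 had no singly named probe and were not analysed here: EMC2B, Ost48, Sar1, Sec23, Sec6, Srp54, SrpRbeta and SsRbeta. The 42 genes lay on all major arms, 9 on 2L, 7 on 2R, 8 on 3L, 12 on 3R and 6 on X.

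Total RNA of larvae with the invadolysin allele 4Y7 was set against that of wild-type Canton S larvae on 4 dual-colour arrays, 1 sample of each genotype per array. Invadolysin encodes a conserved zinc metalloprotease. Stocks of both genotypes were kept at 25 degrees Celsius. No label states whether the mutant larvae were homozygous, how old they were or how many larvae went into a sample. The series calls the arrays biological replicates, but whether samples came from separate cultures is not given, so p-values measure the spread between these samples. The mutant was labelled with Cy5 on replicates 1 and 4 and with Cy3 on replicates 2 and 3.

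Each value is a log2 ratio per array, taken as mutant over wild type. That direction is likely from the titles and not stated, so every "lower" would read "higher" if it were the opposite. Whether the dye-swapped arrays had already been turned is not stated, and they were taken as turned. Arrays with opposite dyes correlated positively, with r from 0.031 to 0.401, and arrays with the same dyes at 0.213 and 0.651. A ratio that had not been turned would put a dye bias of the probe, and not the genotype, into a value of the same sign on all arrays. Such a bias would also give positive r, so these correlations cannot settle the turning. Replicate 4 resembled the others least (r = 0.213 with replicate 1, 0.031 with replicate 2 and 0.039 with replicate 3), so results are also given without it. The Invadolysin probe was at 0.10 ± 0.16 (SD, n = 4; limma adjusted p = 0.761). Since the labels do not say what 4Y7 changes in the gene, this probe is no check on the labels. No channel brightness was used here, so levels of genes, tissue identity and probes near background could not be examined. In whole larvae, fewer cells of a type and less RNA per cell cannot be told apart.

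Most secreted and membrane proteins enter the ER while they are being made. The signal recognition particle binds the emerging signal sequence and takes the ribosome to its receptor, the Sec61 channel passes the chain across the membrane, signal peptidase cuts off the signal and oligosaccharyltransferase adds sugar chains. The ER membrane protein complex (EMC) inserts other transmembrane segments, and vesicles coated with COPII proteins carry finished cargo towards the Golgi. Secretory larval tissues such as the fat body, salivary gland and gut make heavy use of this route.

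The gene group lay lower in the mutant, most of all the genes of the Sec61 translocon. The mean log2 ratio was below 0 in 41 of 42 genes and below -1 in 6, against 48.5% and 3.46% of all features, and the median over the 42 was -0.59 against 0.016 over all features. Tapdelta and Sec61gamma fell, 2.37-fold and 2.77-fold, and 0 members rose at the threshold of 0.05 on the adjusted p of limma. Over all features 0.425% passed as lower and 0.396% as higher. At an unadjusted p under 0.05 in limma, 21 members were lower and 0 higher, against 11.3% and 7.91% of all features. At the looser limit of 0.1 on the adjusted p, 12 members were lower, against 3.17% of all features.

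Agreement between arrays was also more frequent than in the background. Of the 42 genes, 29 were below 0 on all 4 arrays and 0 were above 0 on all 4, against 14.9% and 14% of all features. On replicates 1 to 4, the number of members below 0 was 37, 39, 39 and 35, where 50.2%, 49.6%, 49% and 50.1% of all features were. The group median on these arrays was -0.35, -0.60, -0.65 and -0.59. Without replicate 4 the median of the gene means was -0.54, with 0 members past the adjusted threshold in limma (0.036% of all features were, as lower) and 22 lower at an unadjusted p under 0.05, against 15.7% of all features.

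**Figure D1:**
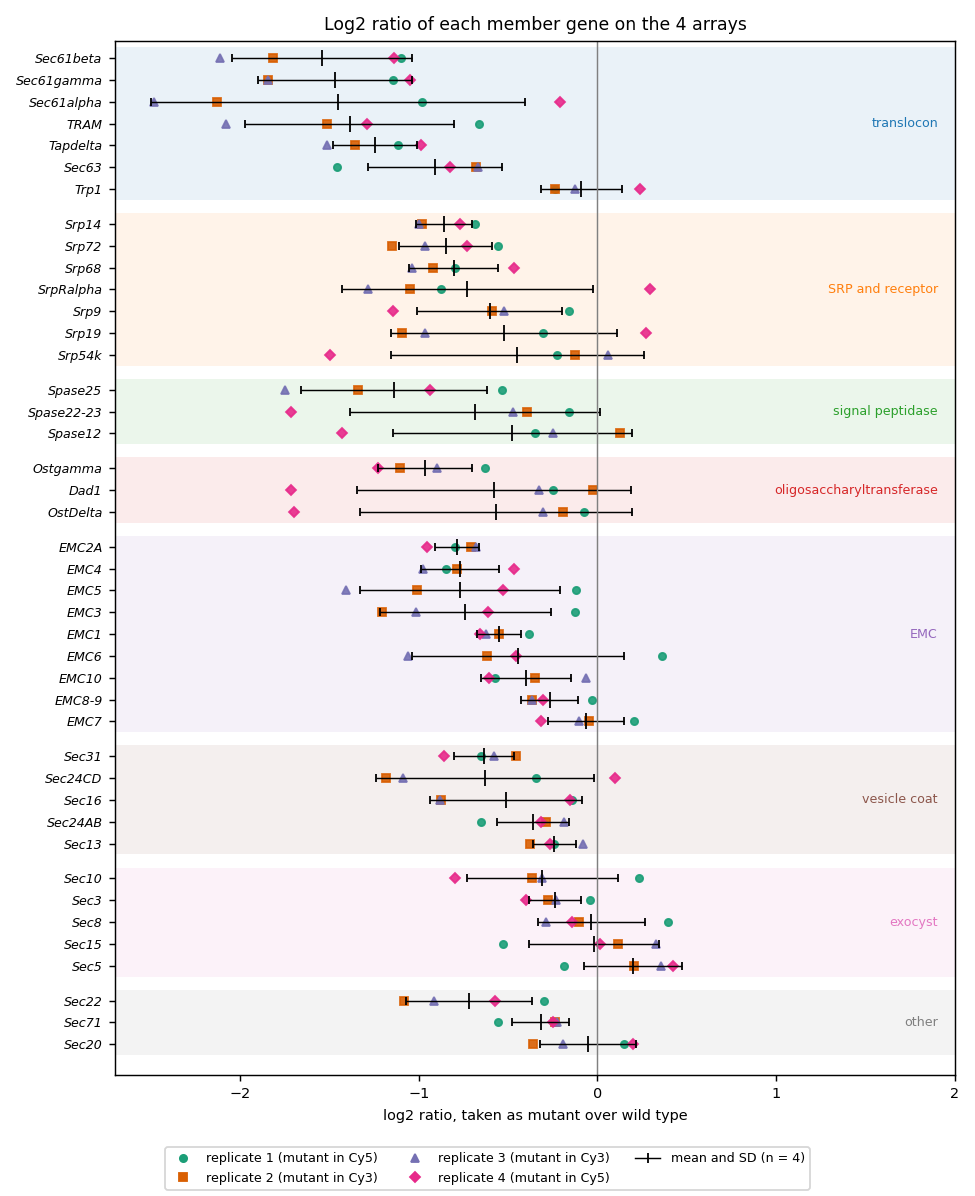
Log2 ratio (horizontal axis) of each of the 42 genes (rows, by role) on the 4 arrays, with the mean and SD over the arrays as a black bar. The Sec61 genes, TRAM and Tapdelta lie furthest to the left, with means from -1.54 to -1.24, while those of the exocyst lie around 0.

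The 3 subunits of the Sec61 channel were each about as far below 0. Sec61gamma, one of the small subunits, was at -1.14, -1.84, -1.85 and -1.05 on replicates 1 to 4. Every array was more than 2-fold below wild type, and the arrays with the mutant in Cy3 were the lower pair. The mean was -1.47 ± 0.43 (SD, n = 4; limma adjusted p = 0.0492). Sec61beta, the other small subunit, was at -1.10, -1.82, -2.12 and -1.14, and Sec61alpha, which forms the pore, at -0.98, -2.13, -2.48 and -0.21. All values were below 0, and Sec61alpha ranged most widely, from near 0 on replicate 4 to the lowest value among these genes on replicate 3. Neither passed the threshold (Sec61beta -1.54 ± 0.50, limma adjusted p = 0.0524; Sec61alpha -1.45 ± 1.05, limma adjusted p = 0.133).

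Between the small subunits the difference, Sec61beta minus Sec61gamma, was -0.072 ± 0.145 (SD over arrays), within its own spread. Sec61alpha minus Sec61gamma was 0.020 ± 0.639, at 0.84 on replicate 4 and -0.64 on replicate 3, so the order of these subunits changed from array to array. Ranked from the lowest of all 13891 features by mean, Sec61beta was number 160, Sec61gamma 181 and Sec61alpha 185. Without replicate 4 the means of Sec61alpha, Sec61beta and Sec61gamma were -1.87, -1.68 and -1.61, with limma adjusted p = 0.0568, 0.0554 and 0.0554.

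The partners of the channel divided into low genes and one near 0. Tapdelta, a subunit of the translocon-associated protein complex that sits beside the channel, was at -1.12, -1.36, -1.51 and -0.99. Its SD was the smallest among the 6 members with a mean below -1, and it was below 0 on all arrays. Its mean was -1.24 ± 0.24 (SD, n = 4; limma adjusted p = 0.0464). TRAM, a membrane protein that contacts chains in the channel, was at -0.67, -1.51, -2.08 and -1.29, a mean of -1.39 ± 0.58 (limma adjusted p = 0.068). It lay below 0 on every array without passing the threshold.

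Sec63 and Trp1 are the pair that serves translocation after synthesis in yeast, where the counterpart of Trp1 is named Sec62. Sec63, a J-domain protein that recruits the ER chaperone BiP, was at -1.46, -0.68, -0.67 and -0.83, with a mean of -0.91 ± 0.37 (limma adjusted p = 0.0903). Unlike the Sec61 genes, it was lowest on replicate 1. Trp1 was at -0.24, -0.24, -0.13 and 0.24, with a mean of -0.090 ± 0.23 (limma adjusted p = 0.803). Trp1 minus Sec63 was above 0 on every array, at 1.22, 0.44, 0.54 and 1.07, a mean difference of 0.82 ± 0.38 that was not tested.

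The calls of Tapdelta and Sec61gamma rested on all 4 arrays. Leaving out replicate 1, 2, 3 or 4 in turn gave Tapdelta limma adjusted p = 0.217, 0.209, 0.151 and 0.0554, with log2 ratios of -1.29, -1.21, -1.15 and -1.33. For Sec61gamma the values were 0.217, 0.2005, 0.145 and 0.0554 at -1.58, -1.35, -1.35 and -1.61. Over all features limma called 114 with the 4 arrays and 0, 19, 17 and 21 without each in turn. Both calls were also lost under quantile normalization (limma adjusted p = 0.0541 for Tapdelta and 0.0658 for Sec61gamma), with a dye term (0.0614 and 0.0608) and with an ordinary t statistic (0.135 and 0.165). Sec61gamma alone also lost its call under scale normalization (0.0526) and with probes tested singly (0.0516).

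The labels give the dye of the mutant on each array, and the Sec61 genes lay below 0 in both dye orientations. With the mutant in Cy5 the means of Sec61alpha, Sec61beta and Sec61gamma were -0.60, -1.12 and -1.10, and with it in Cy3 they were -2.31, -1.97 and -1.84. TRAM was at -0.98 and -1.80, Tapdelta at -1.05 and -1.44, and Sec63 at -1.14 and -0.67. The difference between orientations had an unadjusted p under 0.05 in limma for 7 of the 42 members, the 3 Sec61 genes among them, against 15.9% of all features. After adjustment 0 members and 0 of all features passed. Had the swapped arrays been deposited unturned, as Cy5 over Cy3, 0 members would pass. The genotype ratios would then be 0.37 for Sec61gamma and 0.19 for Tapdelta (limma adjusted p = 0.895 and 0.943). Of the 42 genes, 27 were lower with the mutant in Cy3 than in Cy5, against 51.4% of all features. On replicates 2 and 3 alone, with the mutant in Cy3, limma called 20 members lower, against 9.53% of all features. On replicates 1 and 4 alone, limma called 0 members and 1 lower feature in all (0.0072%), with 7 members lower at an unadjusted p under 0.05, against 6.21% of all features.

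**Figure D2:**
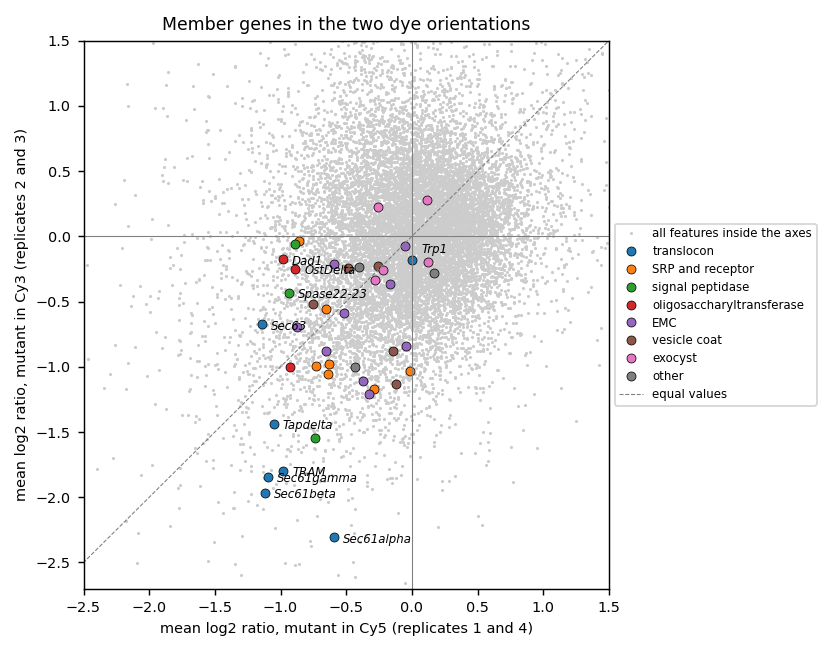
Mean log2 ratio of replicates 1 and 4, with the mutant in Cy5 (horizontal axis), against that of replicates 2 and 3, with it in Cy3 (vertical axis), for the 42 genes coloured by role and for all other features inside the axes (grey). The Sec61 genes, TRAM and Tapdelta lie in the lower left, below the dashed line of equal values, and most other members lie in the same quadrant nearer to 0.

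Genes of the signal recognition particle lay lower by smaller amounts. Of 7 genes of the particle and its receptor 0 passed the threshold in limma. At an unadjusted p under 0.05, 5 were lower, against 11.3% of all features. The class median was -0.73, with -0.55, -0.98, -0.97 and -0.73 on replicates 1 to 4. Srp14, of the domain that slows translation, was at -0.69, -0.98, -0.997 and -0.77, a mean of -0.86 ± 0.16 (SD, n = 4; limma adjusted p = 0.0718). Its partner in that domain, Srp9, was at -0.60 ± 0.41, and ranged from -0.16 on replicate 1 to -1.14 on replicate 4. Srp68 and Srp72, which bind each other on the particle's RNA, were at -0.81 ± 0.25 and -0.85 ± 0.26 (limma adjusted p = 0.0884 and 0.0822), below 0 on every array. Srp14 and Srp72 are near neighbours on 3R, with 3 protein-coding genes between them.

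The signal-binding end of the particle and its receptor varied more between arrays. Srp54k, the subunit that binds the signal sequence, was at -0.23, -0.13, 0.058 and -1.497, so replicate 4 alone was far below 0. Srp19, which prepares the particle's RNA for Srp54k, was at -0.31, -1.09, -0.97 and 0.27, and SrpRalpha, the docking receptor, at -0.87, -1.05, -1.29 and 0.30. For these, replicate 4 was the array above 0. Without replicate 4 the means were -0.098 ± 0.14 for Srp54k, -0.79 ± 0.42 for Srp19 and -1.07 ± 0.21 for SrpRalpha (SD, n = 3; limma adjusted p = 0.702, 0.0934 and 0.0554).

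Among the chosen genes of signal peptidase and oligosaccharyltransferase, 1 of each lay low on all arrays and the others mainly on replicate 4. Spase25, a subunit of signal peptidase, was at -0.53, -1.34, -1.75 and -0.94, a mean of -1.14 ± 0.52 (SD, n = 4; limma adjusted p = 0.0818). The accessory subunit genes Spase22-23 and Spase12 were at -1.72 and -1.43 on replicate 4, and from -0.47 to 0.13 on the other arrays. Ostgamma, a subunit of the sugar transferase, was at -0.63, -1.10, -0.90 and -1.23, a mean of -0.97 ± 0.26 (limma adjusted p = 0.06875). OstDelta was at -0.075, -0.19, -0.30 and -1.70, and Dad1, a small subunit first known as a defender against cell death, at -0.25, -0.026, -0.33 and -1.71. Of the 3 genes in either class 0 passed in limma, and 1 in each was lower at an unadjusted p under 0.05, against 11.3% of all features.

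These class medians rested on replicate 4. The median of the signal peptidase genes was -0.69 with all arrays and -0.34 without replicate 4, and that of the transferase genes was -0.58 and -0.20. The catalytic signal peptidase gene is listed as twr, with Spase18-21 as a synonym, and so was outside the choice by symbol. Its values were 0.050, -1.73, -2.02 and 0.51, near or above 0 with the mutant in Cy5 and low with it in Cy3. The mean was -0.80 ± 1.26 (limma adjusted p = 0.395), and an unadjusted p of 0.00117 for the difference between orientations did not pass adjustment (limma adjusted p = 0.295). Stt3A and Stt3B, transferase genes also outside the choice by symbol, had other patterns. Stt3A was at -0.82, 0.15, -0.71 and -0.97, and Stt3B at -0.54, -1.33, -1.53 and 0.20. Their means were -0.59 ± 0.50 and -0.80 ± 0.79 (limma adjusted p = 0.243 and 0.242).

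The EMC genes had ratios below 0, without a single one past the threshold. Of 9 genes 0 passed in limma, and 5 were lower at an unadjusted p under 0.05, against 11.3% of all features. Of the same genes 7 were below 0 on all 4 arrays, against 14.9% of all features. Their median was -0.55, and on replicates 1 to 4 it was -0.13, -0.62, -0.68 and -0.53. EMC2A, of the cytosolic side of the complex, was at -0.80, -0.71, -0.68 and -0.95, and EMC4, a membrane subunit, at -0.85, -0.79, -0.98 and -0.47. Both were low on every array, with means of -0.79 ± 0.12 and -0.77 ± 0.22 (SD, n = 4; limma adjusted p = 0.0773 and 0.0909). EMC1, the large lumenal subunit, was also close between arrays, at -0.55 ± 0.12 (limma adjusted p = 0.145).

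The values of EMC5, EMC3 and EMC6 depended more on the array. EMC5 was at -0.12, -1.01, -1.41 and -0.53, EMC3, the insertase subunit related to bacterial YidC, at -0.13, -1.20, -1.02 and -0.61, and EMC6 at 0.36, -0.62, -1.06 and -0.46. In each, replicate 1 was nearest to or above 0 and the arrays with the mutant in Cy3 were lowest. Their means were -0.77 ± 0.56, -0.74 ± 0.48 and -0.44 ± 0.59 (limma adjusted p = 0.178, 0.163 and 0.391). At the other end, EMC7 was at 0.20, -0.047, -0.10 and -0.31 and EMC8-9 at -0.031, -0.37, -0.36 and -0.30. EMC10 was at -0.58, -0.35, -0.066 and -0.61. Means of these were -0.065 ± 0.21, -0.27 ± 0.16 and -0.40 ± 0.25, and none of them passed (limma adjusted p = 0.860, 0.410 and 0.278).

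Genes of the COPII vesicle coat had ratios close to those of the EMC. Of 5 genes 0 passed in limma, and 2 were lower at an unadjusted p under 0.05, against 11.3% of all features. The class median was -0.51, with -0.34, -0.46, -0.58 and -0.26 on replicates 1 to 4. Sec31, of the outer cage, was at -0.65, -0.46, -0.58 and -0.86, a mean of -0.64 ± 0.17 (SD, n = 4; limma adjusted p = 0.12). Its cage partner Sec13, which is also a nuclear pore protein, was at -0.25, -0.38, -0.081 and -0.26, a mean of -0.24 ± 0.12 (limma adjusted p = 0.444). Both were below 0 on all arrays.

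The cargo adaptors of the coat differed in their pattern over arrays. Sec24CD was at -0.34, -1.18, -1.09 and 0.096, and Sec24AB at -0.65, -0.29, -0.19 and -0.32. Sec24CD thus followed the dye orientation and Sec24AB was lowest on replicate 1. Sec16, the scaffold of ER exit sites, was at -0.14, -0.88, -0.88 and -0.15, again lower with the mutant in Cy3. The 3 means were -0.63 ± 0.61, -0.36 ± 0.20 and -0.51 ± 0.42 (limma adjusted p = 0.26, 0.301 and 0.257). CG9175, which has Sec12 as a synonym, the name of the factor that activates Sar1, was not chosen by symbol and was at -0.081 ± 0.21 (limma adjusted p = 0.822).

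The translocon lay below the EMC and the vesicle coat on every array. The mean of the 7 translocon genes minus that of the 9 EMC genes was -0.70, -0.74, -0.85 and -0.21 on replicates 1 to 4, an average of -0.62 ± 0.28 (SD, n = 4). Against the coat it was -0.55, -0.73, -0.98 and -0.45, an average of -0.68 ± 0.23. The EMC minus the coat was 0.15, 0.0093, -0.14 and -0.25, an average of -0.056 ± 0.17, so these classes did not differ beyond the spread between arrays. Differences within an array do not depend on how the array was centred. The classes were chosen with earlier results known, so no p-value is given for them.

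**Figure D3:**
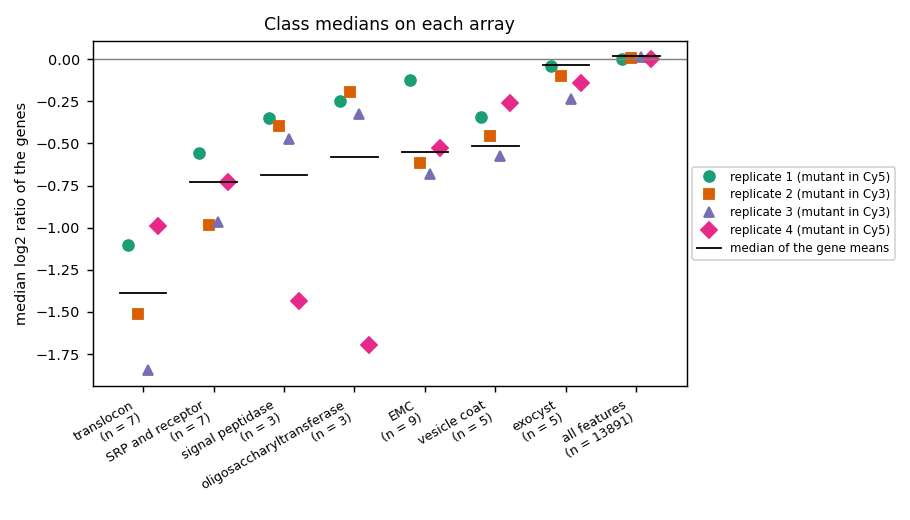
Median log2 ratio of each class of genes (vertical axis) on each of the 4 arrays (symbols), with the median of the gene means as a bar. The translocon is the lowest class on replicates 1 to 3, and on replicate 4 signal peptidase and oligosaccharyltransferase lie below it at -1.43 and -1.70.

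Variation among members repeated between the arrays with the mutant in Cy3 and less between the others. Over the 42 genes, Pearson's r was 0.95 between replicates 2 and 3, against 0.65 over all features, and 0.55 and 0.51 between replicate 1 and these. Replicate 4 had r of 0.16, 0.067 and 0.15 with replicates 1, 2 and 3. These are correlations across genes, which share the array and its dyes, and they are given as a description. Replicate 4 thus placed the group as a whole as low as the other arrays but ranked its genes differently.

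The same symbols also took in genes of other steps, with means from -0.72 to 0.20. The exocyst tethers vesicles to the plasma membrane, and its 5 measured genes had a median of -0.034, with Sec10 at -0.31 ± 0.42, Sec3 at -0.24 ± 0.15, Sec8 at -0.034 ± 0.30, Sec15 at -0.017 ± 0.36 and Sec5 at 0.20 ± 0.27. Of these 0 passed in limma at either the adjusted or the unadjusted limit. Sec22, a SNARE of traffic between the ER and Golgi, was at -0.30, -1.09, -0.91 and -0.57, a mean of -0.72 ± 0.35 (limma adjusted p = 0.133). Sec20, a SNARE of the return path, was at -0.053 ± 0.27, and Sec71, an exchange factor for Arf GTPases, at -0.32 ± 0.16.

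Among genes that act beside the translocation machinery, medians were below 0 in each of 7 lists, with 0 genes past the threshold in limma and 0 by an ordinary t statistic. Of 18 ER chaperones and folding enzymes 8 were lower at an unadjusted p under 0.05 in limma and 0 higher, against 11.3% and 7.91% of all features. Their median was -0.54. Hsc70-3, the fly BiP, was at -0.75, -1.25, -1.25 and -0.75, a mean of -1.001 ± 0.29 (SD, n = 4; limma adjusted p = 0.0669). It lay below 0 on all arrays, as did the disulphide isomerase gene ERp60 (-0.97 ± 0.40, limma adjusted p = 0.0868) and Fkbp14, a prolyl isomerase gene (-0.81 ± 0.32, limma adjusted p = 0.0987). That list also holds DnaJ-1, a cytosolic chaperone gene, at 0.21 ± 0.27.

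The list of the unfolded protein response had a median near 0. Its 9 genes had a median of -0.031, and Xbp1, also listed, was not found by name. At an unadjusted p under 0.05, 1 was lower and 0 higher, near the 11.3% and 7.91% of all features. Manf, a secreted factor induced by ER stress, was the low one at -0.86 ± 0.34 (limma adjusted p = 0.0944). Gcn2, a kinase that senses lack of amino acids, was at 0.43 ± 0.28 and crc, the fly ATF4, at 0.35 ± 0.19. The median of this list does not stand for the whole response, since ER chaperones and genes of ER-associated degradation were counted in other lists. Whether the response itself changed was not tested. Of 13 genes listed by name under ER-associated degradation 2 were lower and 0 higher at that limit, near the same shares of all features. Their median was -0.20, and Ubc6, which was not checked beyond its name, was highest at 0.42 ± 0.42. Der-1, Herp and Hrd3, parts of the route that takes proteins out for degradation, were at -0.57 ± 0.16, -0.52 ± 0.20 and -0.40 ± 0.20 (limma adjusted p = 0.146, 0.175 and 0.265).

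In traffic after ER exit, the COPI coat of retrograde vesicles lay about as low as the COPII genes. Of 8 genes 6 were lower at an unadjusted p under 0.05 in limma, against 11.3% of all features, with a median of -0.60. Its coat subunit genes betaCOP and alphaCOP were at -0.80 ± 0.19 and -0.61 ± 0.26, and ArfGAP1, which acts on the GTPase that recruits the coat, at -0.65 ± 0.36 (limma adjusted p = 0.0822, 0.15 and 0.162). Of 18 cargo receptors, tethers and SNAREs 3 were lower at that limit, near the 11.3% of all features, with a median of -0.35. They were Grasp65, a Golgi stacking protein gene (-0.78 ± 0.18, limma adjusted p = 0.0827), KdelR, the receptor that returns ER residents (-0.77 ± 0.19, limma adjusted p = 0.0881) and Bet3, a subunit of the TRAPP tether (-0.44 ± 0.20, limma adjusted p = 0.228).

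Of 17 other oligosaccharyltransferase and glycosylation genes 5 were lower at an unadjusted p under 0.05, Stt3A and Stt3B among them, and the median was -0.24. Alg14, xit and Dpm1, which act in making or extending the lipid-linked sugar, were at -0.55 ± 0.18, -0.49 ± 0.12 and -0.61 ± 0.37 (limma adjusted p = 0.158, 0.18 and 0.181). Of 5 other genes of membrane insertion 2 were lower, Spp, the signal peptide peptidase gene (-0.97 ± 0.48, limma adjusted p = 0.0987), and CG1598 (-0.44 ± 0.16, limma adjusted p = 0.219), while Sgt, a cochaperone gene, was at -0.48 ± 0.44 (limma adjusted p = 0.285). Over all 7 lists 0 genes were called by limma, and the share of all features lower at the unadjusted limit was 11.3%.

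**Figure D4:**
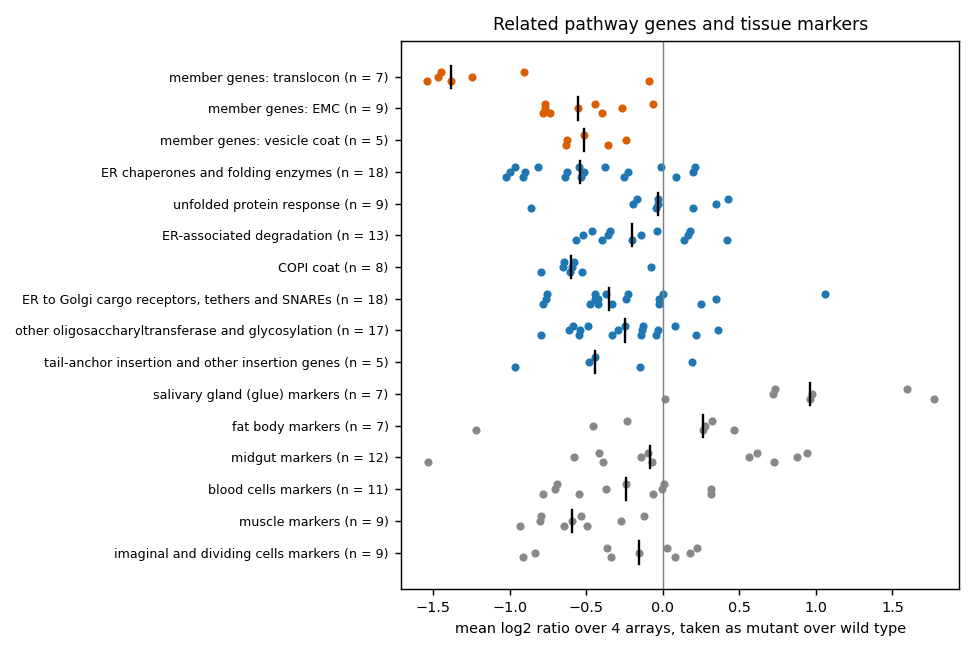
Mean log2 ratio over the 4 arrays (horizontal axis) of each gene, in the 3 compared classes (orange), 7 lists of related genes (blue) and 6 lists of tissue markers (grey), with the median of each as a black bar. The translocon median of -1.39 lies to the left of every list median, and the glue marker median of 0.96 to the right.

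Of the markers of tissues that a larva holds, 0 passed the threshold in limma in any of 6 lists, and 0 by an ordinary t statistic. Over all features, 11.3% were lower and 7.91% higher at an unadjusted p under 0.05 in limma. Salivary glue genes had a median of 0.96, with 4 of 7 higher at an unadjusted p under 0.05, and medians of 1.297, 0.93, 1.20 and 0.70 on replicates 1 to 4. Muscle genes had a median of -0.59 with 6 of 9 lower at that limit, and medians of -0.62, -0.78, -0.96 and -0.072. The translocon medians on the same arrays were -1.10, -1.51, -1.85 and -0.99. The muscle and translocon medians were both nearest to 0 on replicate 4 and lowest on replicate 3. Fat body, blood cell and imaginal medians were also lowest on replicate 3, at -1.09, -0.64 and -0.58. Those of glue and midgut markers were lowest on replicate 4.

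Fat body markers had a median of 0.26 (1 of 7 higher at the unadjusted limit, against 7.91% of all features), which ranged between arrays from -1.09 to 0.85. Their mean ran from 1.46 on replicate 1 to -2.19 on replicate 3, and Lsp2 from 3.91 to -6.44 on these arrays. Midgut markers had a median of -0.086 (1 of 12 lower, 2 higher), which ranged from -1.63 to 1.38. Blood cell markers had a median of -0.24 (3 of 11 lower) and those of imaginal and dividing cells -0.15 (2 of 9 lower), against 11.3% of all features lower. The genes with the smallest p in the 6 lists were ng2 (1.77 ± 0.74), up (-0.65 ± 0.35), Apoltp (0.47 ± 0.32), Jon25Biii (-1.53 ± 0.70), vkg (-0.69 ± 0.35) and PCNA (-0.92 ± 0.30). A named gene does not stand for its list. Means were below 0 in 0 of 7 glue, 9 of 9 muscle and 3 of 7 fat body markers. They were below 0 in 7 of 12 midgut, 8 of 11 blood cell and 5 of 9 imaginal markers. The part of tissue make-up in the results above was not tested.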

How the data were processed

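RNA of 4 mutant and 4 wild-type larval samples was hybridised to 4 dual-colour arrays. The authors deposited 1 log2 ratio per probe and array; no source used here gives its base (taken as 2), centring, within-array normalization or direction. Column medians ran from -0.0015 to 0.0128. The platform annotation gave 1 gene symbol to 12658 of the 14569 probes, several to 96 and none to 1815. Where a gene had more than 1 probe (436 genes), their mean was used. Symbols of all 42 members matched the RefSeq gene table (Release 6 plus ISO1 MT), used only for names, arms and neighbours.

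The mean ratio of each feature was compared with 0 by the moderated statistic of limma 3.58.1 (R 4.3.3, two-sided test, 3.275 prior degrees of freedom). P-values were adjusted over 13891 features by Benjamini-Hochberg, with a threshold of 0.05. Members, roles and lists were chosen with earlier results of these data known. The genes named are all members, Invadolysin and up to 3 genes per list of related genes with the smallest p. Chosen after values were seen were DnaJ-1, Ubc6, twr, CG9175, Stt3A, Stt3B, Lsp2 and 1 gene per marker list. Alternatives were scale and quantile normalization, median centring, single probes, an ordinary t statistic, a dye term, turned swapped arrays, each orientation alone, each replicate left out and synonyms. The number of arrays limits the precision. Tables and figures used Python 3.11.15, pandas 2.3.3, numpy 2.4.6 and matplotlib 3.10.9.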

Additional observations from a re-analysis of the deposited data

Results flagged for a closer look

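Among the 42 genes and 6 class medians, a single array stood far from the other 3 in 4 cases, measured by its gap to the nearest array over the range; chance alone gives this in about 1 in 20 groups. OstDelta was at -1.70 on replicate 4, where the other arrays lay between -0.30 and -0.075. The medians of the oligosaccharyltransferase and signal peptidase genes were at -1.70 and -1.43 on that array. Each median is taken over 3 genes, and on that array it was the value of OstDelta in the first class and of Spase12 in the second. Sec71 was at -0.56 on replicate 1, where the other arrays lay between -0.25 and -0.22.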

How the results depend on the processing

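Median centring changed no call of a member, and the dye term left ratios as they were by construction. The count of all features called by limma was 114, and 1 with an ordinary t statistic, 0 with a dye term, 0 with swapped arrays turned, 4 on the Cy5 mutant arrays alone, 2573 on the Cy3 mutant arrays alone, and from 0 to 21 without 1 replicate. The share called higher was 55 of 90 under quantile normalization and 55 of 114 with the deposited values. Of the members, limma called 2, and 1 under scale normalization (Tapdelta), 1 with probes tested singly (Tapdelta), 20 with the mutant in Cy3 alone, and 0 under quantile normalization, with an ordinary t statistic, a dye term, swapped arrays turned, the mutant in Cy5 alone and without any 1 replicate (0 to 0). At an unadjusted p under 0.05 the last 5 settings before leaving out replicates had 22, 21, 24, 0 and 7 lower members, against 11.9%, 8.73%, 14.1%, 5.05% and 6.21% of all features. Without 1 replicate from 14 to 22 members were lower at that limit, against 6.85% to 15.7% of all features. The cause of these changes was not tested.

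Medians were recomputed for 6 classes, the exocyst and the other genes not among them, and kept their sign under all settings run except turned arrays. The translocon median of -1.39 was -1.80 and that of the signal recognition particle -0.99 with the mutant in Cy3 alone, and that of the vesicle coat -0.25 with it in Cy5 alone. Without 1 replicate the translocon median ran from -1.58 to -1.15, that of the EMC from -0.71 to -0.52 and that of the coat from -0.63 to -0.39. Adding twr gave a signal peptidase median of -0.74, and adding CG9175 a coat median of -0.44.

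An unturned ratio was assumed to be Cy5 over Cy3, and the reverse would give the turned values the opposite sign. If the swapped arrays had been deposited unturned in that form, genotype ratios would be those with their signs turned. In that case 28 members would change sign, with 0 at an unadjusted p under 0.05 in limma. The medians would then be 0.37 for the translocon, 0.17 for the signal recognition particle, 0.099 for the EMC, -0.013 for the coat, -0.25 for signal peptidase and -0.32 for oligosaccharyltransferase. The log2 ratios would be 0.86, 0.42 and 0.37 for Sec61alpha, Sec61beta and Sec61gamma, 0.41 for TRAM, 0.19 for Tapdelta, 0.091 for Trp1, 0.13 for Srp14, 0.21 for Srp72, 0.17 for Srp68, 0.44 for SrpRalpha, 0.51 for Srp19, 0.40 for Spase25 and 0.036 for Ostgamma. Those of EMC1, EMC3, EMC4, EMC5, EMC6, EMC7 and EMC8-9 would be 0.034, 0.37, 0.11, 0.44, 0.40, 0.0095 and 0.099, and those of Sec24CD, Sec16, Sec10, Sec3, Sec8, Sec5, Sec22 and Sec20 would be 0.51, 0.37, 0.028, 0.017, 0.16, -0.080, 0.28 and 0.23. Other changes of sign were in genes near 0, of which EMC7 ran from -0.15 to 0.017, Sec8 from -0.18 to 0.051, Sec15 from -0.13 to 0.15 and Sec20 from -0.14 to 0.050 without 1 replicate: Trp1 at 0.0015, Sec8 at 0.13 and Sec20 at 0.17 with the mutant in Cy5 alone, Sec15 at 0.22 with it in Cy3 alone, Sec15 at 0.15 without replicate 1, Sec20 at 0.050 without replicate 2, Sec8 at 0.051 without replicate 3, and EMC7 and Sec8 at 0.017 and 0.0026 without replicate 4. The fit was paired by design, because each array holds the mutant and the wild-type sample of its replicate and the fit is on their ratio.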
